A study of Homo sapiens with 33 samples.

Results

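The genes described here are the cancer-testis (CT) antigen families MAGEA, MAGEB, MAGEC, GAGE, XAGE, PAGE, SSX, CTAG, CT45A and SPANX, together with MAGED4 and MAGED4B, in 11 high-grade serous ovarian cancer (HGSOC) cell lines. They were chosen by symbol and not by their values. Of the 29744 genes in the deposited tables, 86 carried such a symbol without the final P that marks a pseudogene, and 4 symbols ending in P were dropped. Rows for closely related copies, such as SSX2 and SSX2B, were summed, because estimated counts can be split between copies that share sequence. This made 13 copy groups from 44 rows and left 55 features, counted below as 1 each. The copies of a group do not always share most of their sequence. Of the 31-base words of a row's transcripts, 13.6% were in another copy for GAGE1, 26.8% for SPANXB1, 33.3% for SPANXD, 49.1% for PAGE2 and 59.3% for MAGEA3, against 100% for SSX2. The symbol match also took in 7 CTAGE rows, which made 3 features. CTAGE genes share only letters with the CTAG family and are described apart. PRAME was sought by name and is not analysed here.

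CT antigens are proteins that healthy adults make mainly in the germ cells of the testis and that tumours can switch on again. Many lie in tandem copies on the X chromosome, and DNA methylation of their promoters is a known means of keeping them silent in other tissues. Because the testis shows few peptides to T cells, several CT antigens have been tried as targets for tumour vaccines and engineered T cells.

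The data were bulk RNA-seq of poly(A) RNA, with 33 libraries, 3 for each line. OVCAR3 and OVCAR4 were the platinum-sensitive parents of OVCAR3 ResA, OVCAR3 ResB, OVCAR4 ResA and OVCAR4 ResB, each selected independently by repeated pulses of cisplatin with recovery between them. PEO1 (sensitive), PEO4 and PEO6 (both resistant) came from the same patient, and PEA1 (sensitive) and PEA2 (resistant) from another. The text of the study thus counts 4 sensitive and 7 resistant lines, giving 7 resistant-sensitive pairs. No library is described as exposed to drug at harvest. Each derivative is a single line, so what came with resistance and what is particular to that line cannot be told apart. In the PEO and PEA lines, resistance and the time of sampling cannot be told apart either. Nothing says whether the 3 libraries of a line came from separate cultures, so the p-values measure the spread between these libraries, which may be technical. In bulk RNA, fewer cells with a transcript and less of it per cell cannot be told apart.

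Library totals ran from 18058985 to 43394009 estimated counts. Of 10 ovarian carcinoma markers, 8 to 10 reached 1 TPM (the share of transcripts, a level already divided by transcript length) in each line. Mitochondrial ribosomal RNA took 1.12 to 14.8% of the counts. The germ cell markers DDX4, DAZL, NANOG and SYCP3 were below 1 TPM in every line and POU5F1, a pluripotency factor, was the only gene of that list to reach it.

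Expression was confined to a few members. Of the 55 features, 42 stayed below 1 TPM in every line and 13 reached it in at least 1 line, 11 of them outside CTAGE. Just inside that limit were SSX8 at 3.08 TPM, SSX5 at 2.70 TPM and MAGEA3/6 at 1.43 TPM in their highest line, and just outside were MAGEC2 at 0.843 TPM and MAGEC1 at 0.787 TPM. In counts, 13 of the 86 rows were at 0 in all 33 libraries. CTAG1A/1B, which encodes NY-ESO-1, had 2 counts over all libraries, and the CT45A copies had 17. Of the SPANX family, sperm proteins bound to the nucleus, 69 counts were found, and of MAGEB 83. The SSX family had 14764, XAGE 4479 and MAGED4/4B 17897 counts, which also depend on transcript length. The features at 1 TPM or more were from SSX, XAGE, GAGE, PAGE, MAGEA and MAGED4.

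The lines differed in how many members they expressed. OVCAR3 held 8 features outside CTAGE at 1 TPM or more, OVCAR3 ResA 3 and OVCAR3 ResB 6. PEO4 held 6, PEO6 held 5 and PEO1 held 2, while PEA1 and PEA2 held 1 each, MAGED4/4B in both. OVCAR4 and OVCAR4 ResA held none and OVCAR4 ResB held 2. Summed over all members outside CTAGE, the level was highest in PEO6 at 231.9 ± 13.6 TPM (SD, n = 3) and lowest in OVCAR4 at 1.20 ± 0.350 TPM. OVCAR3 and OVCAR3 ResB had nearly the same sum, 90.5 ± 10.0 and 89.1 ± 4.88 TPM, but through different members, as the heat map of levels shows.

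**Figure D1:**
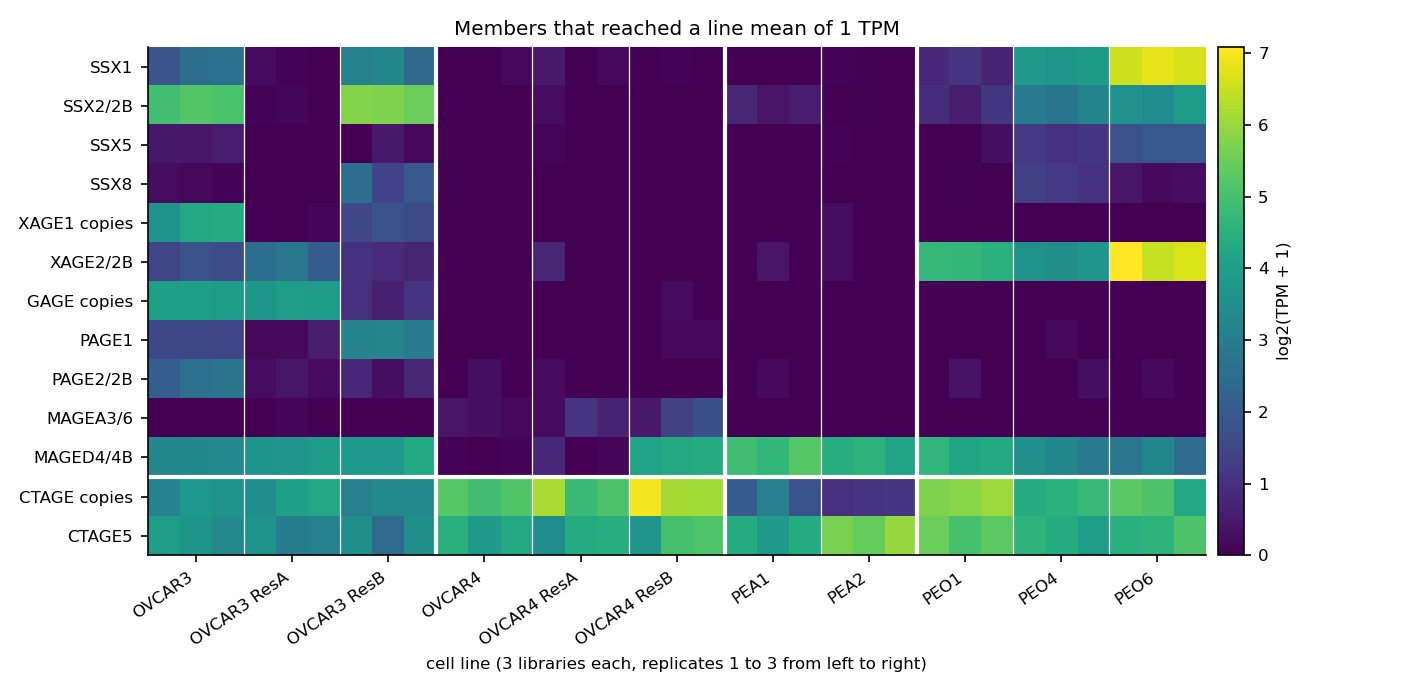
Levels of the 13 features that reached 1 TPM in at least 1 line, as log2(TPM + 1) in each of the 33 libraries, grouped by line with 3 libraries each. The SSX rows are highest in OVCAR3, OVCAR3 ResB, PEO4 and PEO6, and the GAGE row in OVCAR3 and OVCAR3 ResA. The MAGED4/4B row has a mean above 1 TPM in 9 of the 11 lines.

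The SSX genes encode nuclear proteins with a repressor domain that associate with Polycomb-bound chromatin, and SSX1 and SSX2 are the fusion partners of SS18 in synovial sarcoma. Of their 9 features 4 reached 1 TPM, more than in any other family, so their promoters are shown first. Each line below gives the 250 bases before the RefSeq start of the gene (build GRCh38.p14), 5′ to 3′ on the gene's own strand. Capitals mark the longest run of bases, 27 long, that the 3 stretches have in common.

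SSX1, chrX:48255142-48255391, plus strand: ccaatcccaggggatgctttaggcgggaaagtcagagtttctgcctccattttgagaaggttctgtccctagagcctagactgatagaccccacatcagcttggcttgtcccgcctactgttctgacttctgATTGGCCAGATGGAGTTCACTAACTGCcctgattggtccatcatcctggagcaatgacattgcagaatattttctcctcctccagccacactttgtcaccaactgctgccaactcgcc

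SSX2, chrX:52707228-52707477, minus strand: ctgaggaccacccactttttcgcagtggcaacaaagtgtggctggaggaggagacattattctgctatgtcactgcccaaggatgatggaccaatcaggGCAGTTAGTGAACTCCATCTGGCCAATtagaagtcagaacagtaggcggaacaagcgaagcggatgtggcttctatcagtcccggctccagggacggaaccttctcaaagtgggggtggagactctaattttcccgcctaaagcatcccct

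SSX5, chrX:48196796-48197045, minus strand: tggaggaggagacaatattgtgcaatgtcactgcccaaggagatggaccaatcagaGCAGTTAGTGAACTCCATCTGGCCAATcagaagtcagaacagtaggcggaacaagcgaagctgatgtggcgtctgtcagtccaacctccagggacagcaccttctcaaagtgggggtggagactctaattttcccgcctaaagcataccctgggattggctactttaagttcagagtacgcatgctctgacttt

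The run lay 91 bases before the start of SSX1, 124 before that of SSX2 and 167 before that of SSX5, measured from the end of the run. In SSX1 it stood on the opposite strand, so that it reads as the reverse complement of the run in SSX2 and SSX5. Pairwise, SSX1 shared 47 bases in a row with SSX2 and 49 with SSX5, both inverted, and SSX2 shared 48 with SSX5 in the same orientation. The run ends in CCAAT, the letters bound by the factor NF-Y. CCAAT on either strand was found in the window (250 bases before to 50 after the start) of all 7 SSX genes with an entry and in 39.7% of the 27244 other genes in the table. It was also found in all 9 SPANX genes and in none of 8 GAGE genes. The SSX windows come from copied genes and are not independent of each other, and CCAAT was searched only after these sequences were seen. A match is a description of letters and not a measured site.

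SSX1 fell to near 0 in OVCAR3 ResA and rose in both resistant PEO lines. OVCAR3 libraries had 2.66, 4.89 and 4.98 TPM, OVCAR3 ResA 0.153, 0.0478 and 0, and OVCAR3 ResB 7.66, 8.77 and 4.51. ResA lay below OVCAR3 in every library, whereas ResB overlapped it. In the PEO lines, PEO1 had 0.737, 1.08 and 0.614 TPM, PEO4 12.9, 12.4 and 13.5, and PEO6 92.3, 115.1 and 98.4. These 3 lines did not overlap, and PEO6 stood above every other library of the study. SSX1 fell by 6.12 ± 0.89 on the log2 scale (SE) in OVCAR3 ResA against OVCAR3 (DESeq2 adjusted p = 7.16e-11), a ratio of counts, divided by DESeq2's size factors, of 67.1 with an exact 95% counting interval of 25.9 to 248. It rose by 4.02 ± 0.38 in PEO4 (adjusted p = 7.60e-25) and by 6.95 ± 0.32 in PEO6 (adjusted p = 7.41e-100) against PEO1, a comparison line both share. PEO6 was in turn 2.92 ± 0.31 above PEO4 (adjusted p = 4.13e-19).

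SSX2/2B moved with SSX1 in these lines but with another order of levels. OVCAR3 had 29.9, 35.3 and 32.7 TPM, OVCAR3 ResA 0.0496, 0.0828 and 0, and OVCAR3 ResB 53.4, 51.5 and 43.6. PEO1 had 0.897, 0.498 and 1.22 TPM, PEO4 6.39, 5.69 and 8.12, and PEO6 11.1, 9.81 and 13.7. SSX2/2B was thus the leading SSX feature in OVCAR3 and OVCAR3 ResB, and SSX1 in PEO4 and PEO6. The change was -9.65 ± 0.996 in OVCAR3 ResA (adjusted p = 7.85e-21), with a count ratio of 756 (258 to 3667). It was 3.03 ± 0.40 in PEO4 (adjusted p = 6.94e-13) and 3.75 ± 0.40 in PEO6 (adjusted p = 2.95e-19). PEO6 and PEO4 did not pass the test against each other (0.73 ± 0.37, adjusted p = 0.170), although their TPM values did not overlap. In PEA1, SSX2/2B had 0.682, 0.305 and 0.480 TPM, and in PEA2 0, 0.0373 and 0. That difference (-4.86 ± 1.84, adjusted p = 0.0213) concerns a level below the 1 TPM limit set for naming a gene, and it was not called by edgeR.

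Against each other, the 2 OVCAR3 derivatives were at opposite ends for these genes. SSX2/2B was 10.30 ± 0.94 higher in ResB than in ResA (adjusted p = 2.36e-25), a count ratio of 1120 (383 to 5432), and SSX1 was 7.0 ± 0.95 higher (adjusted p = 1.32e-11). Against OVCAR3 itself, ResB did not pass the test for SSX1 (0.66 ± 0.53, adjusted p = 0.663) or SSX2/2B (0.60 ± 0.36, adjusted p = 0.451). The ResB values of SSX2/2B all lay above those of OVCAR3 in TPM.

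SSX5 and SSX8 were weaker. SSX5 had 0, 0 and 0.212 TPM in PEO1, 1.26, 1.01 and 1.18 in PEO4 and 2.40, 2.84 and 2.86 in PEO6. It rose by 4.77 ± 1.26 in PEO4 (adjusted p = 0.000783) and by 5.75 ± 1.13 in PEO6 (adjusted p = 2.90e-06). The PEO4 call was lost without replicate 1 (adjusted p = 0.0608) or replicate 2 (0.0502), and the PEO6 call without replicate 3 (0.108). SSX8, a symbol that RefSeq now lists as a pseudogene, had 0.179, 0.103 and 0.0515 TPM in OVCAR3, 0 in all 3 OVCAR3 ResA libraries and 4.81, 1.67 and 2.77 in OVCAR3 ResB. It was 4.73 ± 0.88 higher in ResB than in OVCAR3 (adjusted p = 4.65e-06) and at least 63.8-fold higher than in ResA per library total, or 68.0-fold on counts divided by DESeq2's size factors, taking 3 counts over the ResA libraries as the floor. The difference from ResA (adjusted p = 3.60e-08) was lost without replicate 3 (0.124). It was the one SSX feature of OVCAR3 ResB that passed the test against the parent. In the PEO lines SSX8 had 0, 0.0355 and 0 TPM in PEO1, 1.52, 1.27 and 1.01 in PEO4 and 0.344, 0.143 and 0.167 in PEO6. It rose in PEO4 (6.32 ± 1.42, adjusted p = 5.60e-05), with a count ratio of 86.5 (15.1 to 3459). It was lower in PEO6 than in PEO4 (-2.59 ± 0.89, adjusted p = 0.0242), the opposite direction to SSX1, and this call was lost without any of the 3 replicates (adjusted p 0.0868 to 0.477).

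**Figure D2:**
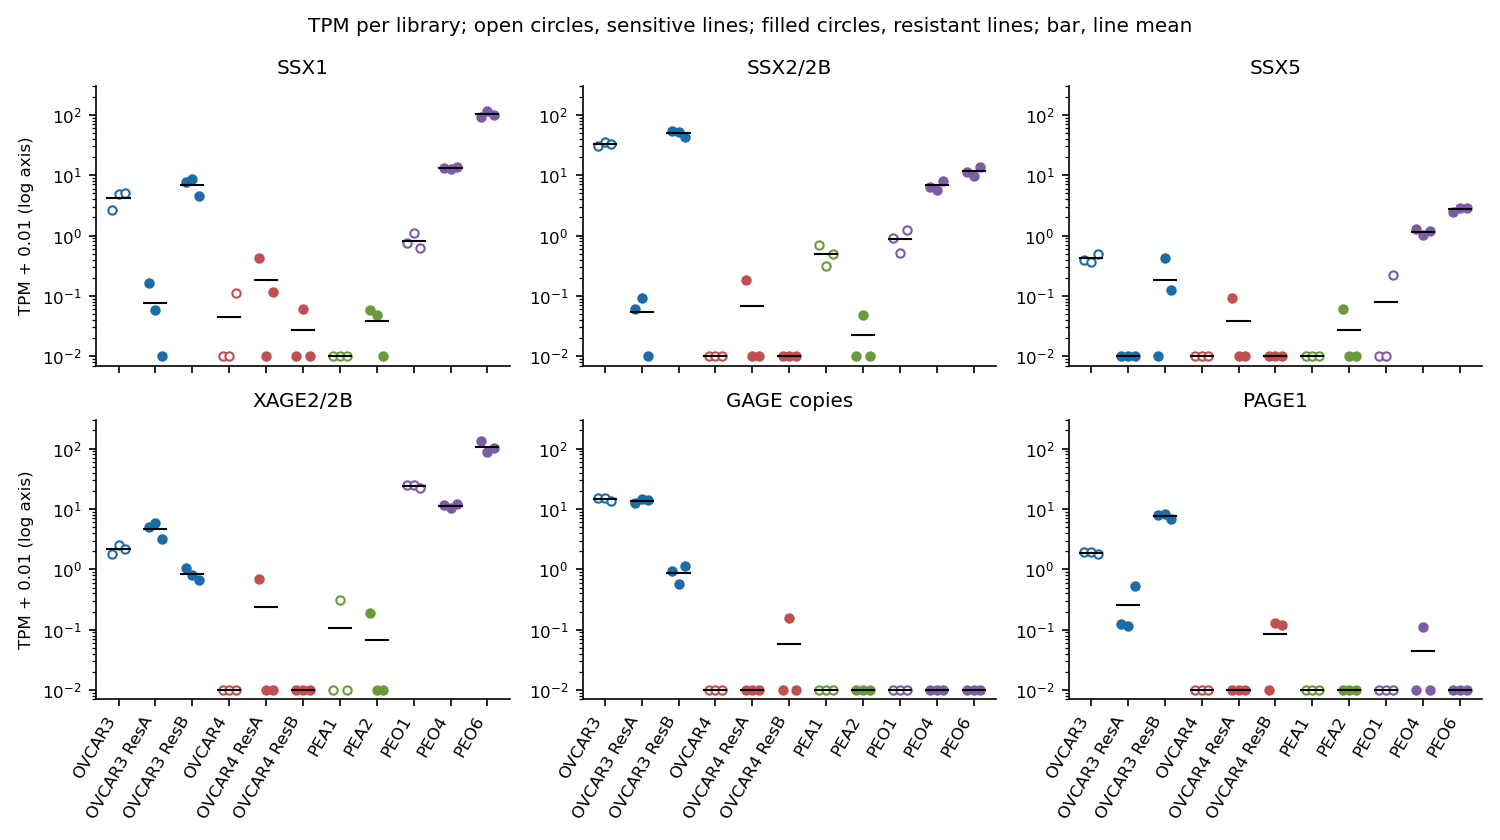
Level of 6 features in each library on a log axis of TPM + 0.01, with lines along the horizontal axis, open circles for sensitive and filled circles for resistant lines, colours for the 4 families of lines and a bar at the mean of 3 libraries. SSX1 and SSX2/2B drop to near 0 in OVCAR3 ResA and rise from PEO1 to PEO4 and PEO6, while the GAGE copies are near 0 outside OVCAR3 and its derivatives.

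The XAGE, GAGE and PAGE genes form the GAGE superfamily, small acidic proteins that are largely unfolded in solution. XAGE2/2B (XAGE2, chrX:52369021-52375680) held the XAGE2 row alone, since XAGE2B had no row. It was the most abundant of these genes and was, like SSX1, highest in PEO6. PEO1 had 25.4, 24.7 and 22.0 TPM, PEO4 11.5, 10.2 and 12.0, and PEO6 134.9, 88.1 and 101.8. These 3 lines did not overlap. XAGE2/2B was lower in PEO4 (-1.08 ± 0.30, adjusted p = 0.00196) and higher in PEO6 (2.07 ± 0.29, adjusted p = 2.35e-11) than in PEO1, so that PEO6 was 3.14 ± 0.33 above PEO4 (adjusted p = 2.73e-19). The PEO4 call was lost without replicate 1 (adjusted p = 0.0864) or replicate 2 (0.221). SSX1, in contrast, was higher than in PEO1 in both PEO4 and PEO6.

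In the OVCAR3 lines XAGE2/2B was at a lower level and had the opposite order to SSX1. OVCAR3 had 1.80, 2.50 and 2.17 TPM, OVCAR3 ResA 4.95, 5.89 and 3.20, and OVCAR3 ResB 1.05, 0.789 and 0.667. ResA was above and ResB below the parent in every library. The rise in ResA (1.30 ± 0.51, adjusted p = 0.0285) was lost without any of the 3 replicates (adjusted p 0.142 to 0.345). ResB was 2.91 ± 0.83 lower than ResA on the log2 scale (adjusted p = 0.00574), a call lost without replicate 1 (0.152) or replicate 2 (0.327).

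XAGE1 was present in OVCAR3 and OVCAR3 ResB alone among the 11 lines at 1 TPM. OVCAR3 had 11.3, 18.3 and 19.9 TPM, OVCAR3 ResA 0, 0 and 0.0911, and OVCAR3 ResB 1.85, 2.52 and 1.95. The 3 lines did not overlap. XAGE1 fell by 8.61 ± 1.23 in ResA (adjusted p = 3.46e-11), with a count ratio of 411 (73.3 to 16267), and by 2.93 ± 0.57 in ResB (adjusted p = 1.45e-05). It was thus the member with a fall in both derivatives that reached the highest level in the parent. The ResA call was lost without replicate 3 (adjusted p = 0.0581). ResB was 5.77 ± 1.69 above ResA (adjusted p = 0.00767), which was lost without replicate 1 (0.163) or replicate 2 (0.376).

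The GAGE genes had the reverse pattern to SSX in the OVCAR3 derivatives. Their summed copies had 15.3, 15.4 and 13.7 TPM in OVCAR3, 12.4, 14.5 and 13.9 in OVCAR3 ResA and 0.927, 0.554 and 1.14 in OVCAR3 ResB. ResA overlapped the parent and did not pass the test (-0.25 ± 0.29, adjusted p = 0.523), whereas every ResB library was far below it. GAGE fell by 4.19 ± 0.68 in ResB against OVCAR3 (adjusted p = 5.21e-08) and was 3.96 ± 0.70 lower than in ResA on the log2 scale (adjusted p = 6.81e-07). In OVCAR4, OVCAR4 ResA and all PEA and PEO lines the GAGE copies were at 0, which allows up to 3 counts in a line's 3 libraries together.

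PAGE1 (chrX:49687447-49695984), a prostate-associated member, followed SSX and not GAGE within the OVCAR3 lines. In the PEO lines it did not follow SSX1, with a mean of 0 TPM in PEO1 and PEO6 and 0.0342 TPM in PEO4. OVCAR3 had 1.90, 1.93 and 1.77 TPM, OVCAR3 ResA 0.116, 0.105 and 0.514, and OVCAR3 ResB 7.98, 8.39 and 6.69. The 3 lines did not overlap. PAGE1 fell by 3.27 ± 1.03 in ResA (adjusted p = 0.00476) and rose by 1.96 ± 0.64 in ResB (adjusted p = 0.0334), and ResB was 5.13 ± 0.93 above ResA (adjusted p = 1.19e-06). The fall in ResA was lost without replicate 1 (adjusted p = 0.143) or replicate 2 (0.122). The rise in ResB was lost without the same replicates (0.441 and 0.707) and with edgeR (0.0812).

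PAGE2/2B had 3.37, 4.97 and 5.64 TPM in OVCAR3, 0.183, 0.313 and 0.158 in OVCAR3 ResA and 0.743, 0.196 and 0.703 in OVCAR3 ResB. Both derivatives lay below the parent in every library. It fell by 4.57 ± 0.99 in ResA (adjusted p = 2.28e-05) and by 3.25 ± 1.06 in ResB (adjusted p = 0.0348). The ResB call was lost without any of the 3 replicates (adjusted p 0.149 to 0.608).

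The 2 OVCAR3 derivatives thus differed in the families they expressed. ResA had GAGE, XAGE2/2B and MAGED4/4B at 1 TPM or more and was near 0 for SSX1, SSX2/2B and XAGE1. ResB had SSX1, SSX2/2B, SSX8, PAGE1, XAGE1 and MAGED4/4B at 1 TPM or more and was below it for GAGE. Both were below it for PAGE2/2B. Of the members below the naming limit, MAGEC1 is given because its values changed in both derivatives: it had 1.01, 0.808 and 0.544 TPM in OVCAR3, 0.0139, 0 and 0.0130 in ResA, and 0, 0 and 0.0595 in ResB. MAGEC1 was lower in ResA (count ratio 99.9, 27.2 to 831, adjusted p = 5.76e-08) and in ResB (-5.75 ± 1.20, adjusted p = 6.58e-05). MAGEC2, its neighbour in the family, had 1.02, 0.671 and 0.843 TPM in ResB and 0.0946, 0.0596 and 0.117 in ResA, and differed between the lines (3.26 ± 1.04, adjusted p = 0.0178). MAGEA10 was lower than in OVCAR3 in both derivatives and SSX7 higher in ResB than in ResA, each from under 1 TPM and chosen, like MAGEC1 and MAGEC2, after the values were seen. Endothelial PECAM1 was also higher in OVCAR3 ResB, where the 2 endothelial markers summed to 2.92 to 13.7 TPM against 0.0336 to 0.151 TPM in OVCAR3, and CDH5 stayed below 1 TPM. The part of such cells or transcripts in the CT changes was not tested.

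MAGE proteins share a domain that binds RING ubiquitin ligases. MAGED4 and MAGED4B (MAGED4, chrX:52184888-52192268; MAGED4B, chrX:52061827-52069272) encode the same kind of protein from 2 near-identical loci and belong to the MAGE-D branch, which is expressed more widely than MAGEA to MAGEC. Their promoter differs from those of SSX in base composition. The stretch before MAGED4B is shown with each CpG, the dinucleotide that DNA methylation acts on, in capitals, followed by that of XAGE2 for comparison (GRCh38.p14, 250 bases each).

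MAGED4B, chrX:52069273-52069522, minus strand: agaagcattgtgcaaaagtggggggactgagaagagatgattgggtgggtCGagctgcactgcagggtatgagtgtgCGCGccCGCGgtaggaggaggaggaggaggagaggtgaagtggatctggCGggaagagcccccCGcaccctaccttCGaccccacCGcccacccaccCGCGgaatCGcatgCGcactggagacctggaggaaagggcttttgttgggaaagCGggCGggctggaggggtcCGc

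XAGE2, chrX:52368771-52369020, plus strand: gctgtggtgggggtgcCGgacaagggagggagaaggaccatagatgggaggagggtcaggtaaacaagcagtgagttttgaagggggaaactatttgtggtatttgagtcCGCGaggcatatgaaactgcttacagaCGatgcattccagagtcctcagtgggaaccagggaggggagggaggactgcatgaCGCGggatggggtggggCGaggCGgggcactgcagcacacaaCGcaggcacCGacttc

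The MAGED4B stretch held 16 CpG and that of XAGE2 10, against 3 before SSX1, 7 before SSX2 and 5 before SSX5. Over the window of 300 bases, the ratio of observed to expected CpG was 0.736 to 0.759 for the MAGED4 pair. Its median was 0.477 over 7 SSX genes, 0.444 over all 59 members outside CTAGE with a window and 0.564 over the other 27244 genes. A ratio of 0.6 or more, a usual limit for a CpG island, was met by 9 of the 59 members (15.3%), by none of the SSX genes and by 47.8% of other genes. The letters GGGCGG (the core of an Sp1 site, either strand) were in 27.1% of the members' windows and 48.3% of the others, and CCGGAA (the core of an ETS site, either strand) in 6.78% and 20.1%. The windows of copied genes are not independent, so no test was run, and no methylation was measured here.

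**Figure D3:**
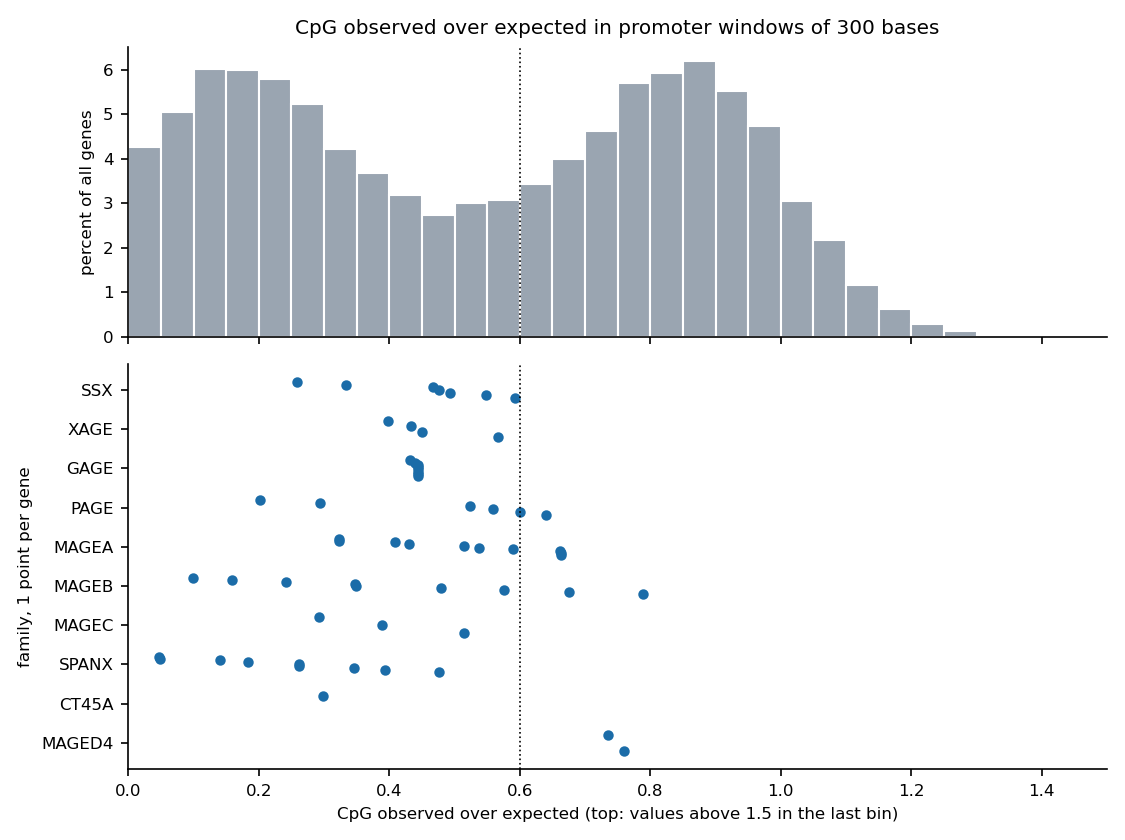
Ratio of observed to expected CpG in RefSeq promoter windows of 300 bases. The upper histogram gives the percent of all genes in each bin, the points below give the members by family, and the dotted line marks 0.6; the MAGED4 pair lies to its right at 0.736 and 0.759 and the SSX genes to its left.

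MAGED4/4B was the member expressed in the most lines, and it was switched between the OVCAR4 lines. OVCAR4 had 0.0411, 0 and 0.0484 TPM, OVCAR4 ResA 0.773, 0 and 0.0993, and OVCAR4 ResB 16.4, 18.9 and 19.8. The OVCAR4 ResB libraries stood far above the other 6, which overlapped. MAGED4/4B was 8.72 ± 0.87 higher in OVCAR4 ResB than in OVCAR4 (adjusted p = 2.96e-21), with a count ratio of 395 (154 to 1452), and 7.55 ± 1.57 higher than in OVCAR4 ResA (adjusted p = 1.38e-05). OVCAR4 ResA replicate 1, with 32 MAGED4/4B counts against 0 and 4 in replicates 2 and 3, had mitochondrial ribosomal RNA at 9.23% of its counts against 2.02 and 2.09%. That library was also the only OVCAR4-family library with 3 or more counts of SSX1 (8), SSX2/2B (3) or XAGE2/2B (5). Mitochondrial ribosomal RNA was 5.18, 14.8 and 12.0% in the OVCAR4 libraries and 13.1, 2.47 and 2.39% in OVCAR4 ResB. The part of these differences in the OVCAR4 comparisons was not tested. Both MAGED4/4B calls held without replicate 1.

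In the other families MAGED4/4B changed less. PEO1 had 24.3, 17.1 and 19.3 TPM, PEO4 10.9, 8.46 and 6.36, and PEO6 5.85, 8.56 and 4.67. Both resistant lines lay below PEO1 and overlapped each other. MAGED4/4B fell by 1.22 ± 0.20 in PEO4 (adjusted p = 7.76e-09) and by 1.72 ± 0.27 in PEO6 (adjusted p = 3.96e-09). In OVCAR3, ResA and ResB the levels were 8.59 to 9.15, 11.8 to 14.1 and 12.6 to 18.7 TPM. The rise in ResA (0.37 ± 0.16, adjusted p = 0.0450) was lost without the replicate block (0.183) and without any of the 3 replicates (0.122 to 0.394). PEA1 had 29.3, 24.6 and 36.5 TPM and PEA2 20.4, 22.8 and 16.7, which did not overlap but missed the threshold (-0.46 ± 0.24, adjusted p = 0.108).

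MAGEA3/6, which activates the ligase TRIM28, reached a mean of 1 TPM in OVCAR4 ResB alone. OVCAR4 had 0.293, 0.221 and 0.115 TPM, OVCAR4 ResA 0.155, 1.09 and 0.592, and OVCAR4 ResB 0.399, 1.60 and 2.29. OVCAR4 ResB lay above OVCAR4 in every library, but did not pass the test (1.96 ± 0.95, adjusted p = 0.147). It passed when the replicate block was left out.

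The OVCAR4 derivatives also differed from their parent across the X chromosome, on which all 76 rows outside CTAGE with a RefSeq position lie. This was looked at after the MAGED4/4B values were seen. Among 53 tested protein-coding neighbours that are not members, between SSX5 and the last PAGE gene (chrX:48186220-55264916), 14 were higher and 0 lower in OVCAR4 ResA and 22 higher and 0 lower in OVCAR4 ResB. Over all features, 6.21% and 8.79% were called higher in those comparisons. Elsewhere on the X chromosome, 118 of 373 tested genes were higher and 11 lower in ResA, and 131 of 383 higher and 17 lower in ResB. The median log2 change of the neighbours was 0.85 in ResA and 1.05 in ResB, where that of all features in ResA was -0.01. On log2(TPM + 1), the median of all features itself moved by 0.44 in ResA and 0.47 in ResB, so TPM and fitted changes of these lines differ by about that much. In the other 5 resistant-sensitive pairs the median of the neighbours was within 0.18 of 0. The calls of the neighbours still leaned upward in the PEO pairs. In PEO6, 15 of 60 were higher and 3 lower, against 76 and 89 of 433 elsewhere on the X chromosome. In PEO4, 8 of 60 were higher and 2 lower, against 52 and 91 of 432 elsewhere. In OVCAR3 ResA 15 of 62 were higher and 10 lower, in OVCAR3 ResB 2 and 1 of 59, and in PEA2 11 and 12 of 58. The part of these shifts in the member values was not tested.

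Counted over all features, the members' calls stood as follows. In OVCAR3 ResA, 11 of 24 tested members were called, 2 higher and 9 lower, where 43.7% of all tested features were called (21.4% higher, 22.3% lower). In OVCAR3 ResB it was 7 of 19 (2 higher, 5 lower), where 7.14% of all were called (3.85% higher, 3.29% lower). The OVCAR3 ResA share is thus close to its background. The OVCAR3 ResB share is above its own by DESeq2, but its 7 calls became 4 with edgeR, 4 in the fit of all 33 libraries and 0 with limma on log2(TPM + 1) or log2(TPM + 0.1). Several of the tested members passed the filter on low counts through the line where they were high, so the share is not one of all members.

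In the OVCAR4 derivatives few members could be tested. None of 6 was called in OVCAR4 ResA by DESeq2, where 11.1% of all features were (6.21% higher, 4.85% lower), and 0 reached an unadjusted p under 0.05 in DESeq2 or edgeR. In limma on log2(TPM + 1), 0 were called and 2 reached it unadjusted. In OVCAR4 ResB 1 of 6 was called (background 17.3%, 8.79% higher and 8.5% lower), which was MAGED4/4B.

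The patient-derived pairs had 3 to 8 calls, against 0 and 1 in the OVCAR4 pairs and 11 and 7 in the OVCAR3 pairs. In PEA2, 3 of 5 were called (background 44.5%, 22.0% higher and 22.5% lower), 2 of them CTAGE features. In PEO4 it was 8 of 11, 4 higher and 4 lower (background 33.3%, 16.6% higher and 16.7% lower). In PEO6 it was 7 of 9, 4 higher and 3 lower (background 39.2%, 20% higher and 19.2% lower). All 4 features that rose in PEO4 were SSX genes, and 3 of the 4 in PEO6. Without CTAGE, 4 rose and 2 fell among 9 in PEO4, and 4 rose and 1 fell among 7 in PEO6.

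Between resistant lines of the same origin, OVCAR3 ResB against ResA had 9 of 13 members called, 7 higher and 2 lower (background 12.6%, 6.98% higher and 5.59% lower). OVCAR4 ResB against ResA had 3 of 7, all higher (background 31.9%, 15.8% higher and 16.1% lower), and 1 when the replicate block was left out. PEO6 against PEO4 had 3 of 9, 2 higher and 1 lower (background 18.2%, 9.86% higher and 8.33% lower). These 10 comparisons share lines, so their counts are not independent. The members that were tested had passed DESeq2's filter on low counts, often through the line where they were high, so the shares describe those members alone. The median log2 change over the tested members was -2.83 in OVCAR3 ResA and 1.99 and 2.07 in PEO4 and PEO6, where all features had -0.02, 0.01 and 0.05. With members at 0 set to their bound it was -2.08, 1.90 and 2.07.

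**Figure D4:**
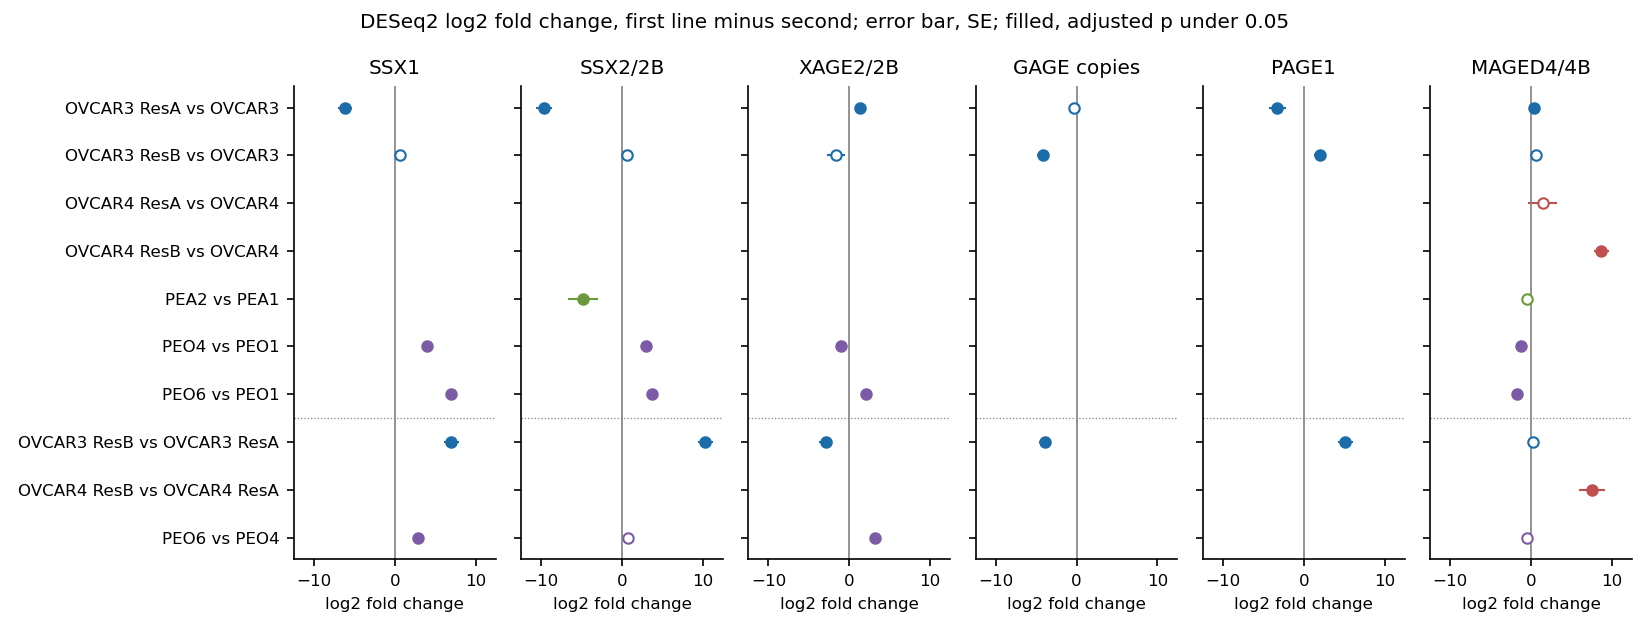
Fitted log2 changes with SE for SSX1, SSX2/2B, XAGE2/2B, the GAGE copies, PAGE1 and MAGED4/4B in the 10 comparisons, the first line named minus the second. Filled points passed the DESeq2 test, and a missing point had no adjusted p. SSX1 and SSX2/2B point down in OVCAR3 ResA and up in PEO4 and PEO6.

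No member changed in 1 direction in all 4 families of lines. Over the 7 resistant-sensitive pairs, SSX1 was called higher in 2 and lower in 1, SSX2/2B higher in 2 and lower in 2, and MAGED4/4B higher in 2 and lower in 2. XAGE1 and PAGE2/2B were each lower in 2, both times in OVCAR3 derivatives. In the test with 1 summed sample per line (4 sensitive, 7 resistant, with the family of the line in the model), 0 of 15 members with an adjusted p were called by DESeq2, where 67 of 18012 features were (0.372%). Of the 15, 1 reached an unadjusted p under 0.05, namely PAGE2/2B (-2.53 ± 1.06, DESeq2 adjusted p = 0.440), and edgeR called 0 with 0 at an unadjusted p under 0.05. With the OVCAR4 lines left out, 1 member was called, PAGE5, which was lower in the resistant lines and stayed under 1 TPM.

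Over the 11 lines, the mean levels of some members were close in pattern, given here as Pearson correlations of log2(TPM + 1) without a test. PAGE2/2B and XAGE1 had 0.981 and SSX1 and SSX5 had 0.954. PAGE1 and SSX2/2B had 0.769, SSX1 and XAGE2/2B 0.758, and SSX1 and SSX2/2B 0.746. The lines fall into 4 families and most points are near 0, so these values rest on few lines.

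How counts were split between copies bears on single-copy values. All 31-base words of SSX2 are in SSX2B and 68.7% of those of SSX2B are in SSX2, and 99.8% of those of MAGED4 are in MAGED4B. In PEO6, the 3 libraries gave SSX2 277, 231 and 0 counts and SSX2B 0, 0 and 309. The sum differed little between those libraries while the copy that received it switched. Of 28 libraries with 10 or more MAGED4/4B counts, 2 had all of them on MAGED4 and 10 on MAGED4B, and in 6 of 9 lines the share of a copy moved by more than 50 percentage points between libraries. In OVCAR4 ResB all counts were on MAGED4B in each of the 3 libraries.

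The GAGE rows were split differently in OVCAR3 and OVCAR3 ResA. GAGE12J (chrX:49322037-49329384) had 47.3, 72.6 and 62.6 counts in OVCAR3 ResA and 0 in all OVCAR3 libraries. GAGE2A (chrX:49589496-49596824) had 110, 73.2 and 56.0 counts in OVCAR3 and 5.41, 2.61 and 1.31 in OVCAR3 ResA. Summed over the copies the 2 lines overlapped. Tested as deposited, without summing, GAGE12J was the 1 member row called between resistant and sensitive lines (19.8 ± 3.21, adjusted p = 3.83e-06), and the summed GAGE copies were not called there. Apart from 1 count in OVCAR4 ResB, all GAGE12J counts were in OVCAR3 ResA. The fitted value thus rests on 1 line, depends on the fit and is not a measured size. Words are also shared between different SSX genes. Of those of SSX1, 8.30% are in SSX2, 8.21% in SSX5 and 14.1% in SSX4, and of those of SSX2, 11.5% are in SSX5 and 28.7% in SSX3.

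**Figure D5:**
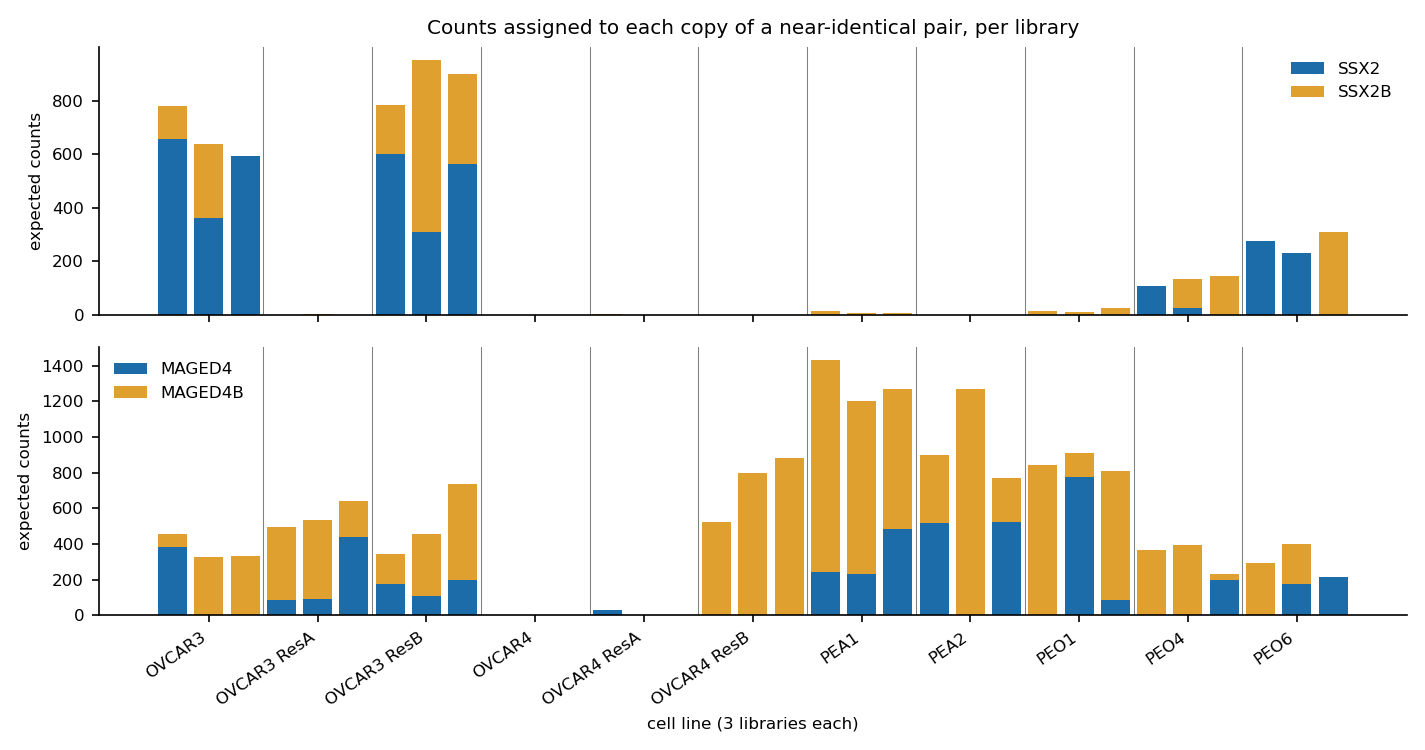
Estimated counts of the 2 copies of SSX2/2B and of MAGED4/4B in each library, stacked. In PEO6 the SSX2/2B bars are similar in height while their colour changes between libraries. For MAGED4/4B the heights also differ within some lines, as in OVCAR3 ResB, and the colour stays the same in OVCAR4 ResB.

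Of the 3 CTAGE features, the CTAGE copies and CTAGE5 had a mean above 1 TPM in every line, while CTAGE1 had at most 0.027 TPM in any line and 0 counts in OVCAR3 and OVCAR3 ResB. CTAGE5, better known as MIA2, acts at the exit sites of the endoplasmic reticulum, and the other CTAGE copies are related to it. The copies had 86.3 ± 31.7 TPM in OVCAR4 ResB and 1.10 ± 0.112 in PEA2, and CTAGE5 51.2 ± 10.47 in PEA2. In PEA2 the copies fell by 1.65 ± 0.44 (adjusted p = 0.000676) and CTAGE5 rose by 1.69 ± 0.24 (adjusted p = 1.47e-11). In PEO4 both were lower (-1.29 ± 0.19 and -0.93 ± 0.18, adjusted p = 6.68e-11 and 1.80e-06), and so in PEO6 (-1.01 ± 0.29 and -0.58 ± 0.23, adjusted p = 0.00211 and 0.0328). The fall of the copies in PEA2 was lost without replicate 1 (adjusted p = 0.0618) or replicate 2 (0.225), that in PEO6 without replicate 3 (0.118), and that of CTAGE5 in PEO6 without replicate 1 (0.234) or replicate 2 (0.252). CTAGE5 was also lower in OVCAR3 ResA (-0.61 ± 0.17, adjusted p = 0.0014), a call lost without replicate 2 (0.132). In OVCAR4 ResB against ResA both were called higher (1.01 ± 0.11 and 0.55 ± 0.13), but their TPM values overlapped and neither call held without the replicate block (adjusted p = 0.373 and 0.433). In OVCAR4 ResA, replicate 1 had 71.3 TPM on the copies and 9.91 on CTAGE5, where the other replicates had 27.7 and 33.2 on the copies and 19.4 and 20.5 on CTAGE5. Of the 31-base words of CTAGE4, CTAGE6 and CTAGE15, 8.01 to 8.64% are in CTAGE5, so the single values are uncertain. Beside the PEA2 changes, the 5 fibroblast markers summed to 66.1 to 106 TPM in PEA1, with COL1A1 alone at 1 TPM or more and DCN at 0, and to 0.665 to 1.16 TPM in PEA2. The 10 ovarian carcinoma markers summed to 411 to 455 TPM in PEA1, with MUC16 and SOX17 below 1 TPM, and to 3464 to 3728 TPM in PEA2. The 4 leukocyte markers summed to 0.352 to 0.487 TPM in PEA1, with PTPRC and CD3E at 0, and to 5.38 to 7.24 TPM in PEA2, with CD3E at 0. The 2 endothelial markers summed to 0.0132 to 0.0927 TPM in PEA1 and 5.62 to 8.68 TPM in PEA2, where CDH5 passed 1 TPM after being at 0 in PEA1. The part of these differences in the result was not tested.

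Of the machinery known to silence CT genes, 28 listed genes were read from the same fits. In OVCAR3 ResA 4 of 27 tested were higher and 7 lower, which is 40.7% called where 43.7% of all features were, with HDAC1, a histone deacetylase, at -1.23 ± 0.11 (adjusted p = 1.35e-26). In OVCAR3 ResB 0 of 27 were called by DESeq2 or edgeR, with 2 at an unadjusted p under 0.05 in DESeq2 and a background of 7.14%. In PEO6 4 of 27 were higher and 9 lower (48.1%, background 39.2%). There DNMT1, the maintenance DNA methyltransferase, was lower (-1.44 ± 0.25, adjusted p = 6.82e-08), as was HDAC2 (-1.18 ± 0.23, adjusted p = 3.55e-06). TET2, which oxidises methylated cytosine, was higher (1.48 ± 0.25, adjusted p = 3.92e-08), as was DNMT3A, another DNA methyltransferase (1.06 ± 0.25, adjusted p = 0.000166). TET2 was also higher in OVCAR3 ResA (0.67 ± 0.13, adjusted p = 1.16e-06). In PEO4 4 of 26 were higher and 2 lower (23.1%, background 33.3%). Those higher were DAXX (1.27 ± 0.18, adjusted p = 1.52e-11), HDAC1 (1.14 ± 0.17, adjusted p = 2.51e-10), EHMT2 (0.94 ± 0.19, adjusted p = 5.33e-06) and DNMT3A (0.52 ± 0.20, adjusted p = 0.0287). In PEA2 3 of 26 were higher and 7 lower (38.5%, background 44.5%). The largest of these changes at 1 TPM or more were MBD2 (-1.17 ± 0.26), DNMT3B (1.08 ± 0.23), DNMT3A (-0.89 ± 0.26) and DAXX (-0.69 ± 0.22). The median change of the list was -0.28 in PEO6 and -0.25 in PEA2.

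Of 46 listed germline and CT genes outside these families, 45 were found and 10 to 19 tested in each pair. In OVCAR3 ResA 4 of 19 rose and 3 fell (36.8%, background 43.7%), with STK31, a germ cell kinase-like protein, up by 2.41 ± 0.20 (adjusted p = 6.12e-33). In OVCAR3 ResB 1 of 15 rose and 2 fell (20%, background 7.14%), among them LIN28B, an RNA-binding protein that blocks let-7 maturation (-6.07 ± 0.72, adjusted p = 9.90e-15). The other fall was NXF2, from 1.59 TPM in OVCAR3 to 0 (DESeq2 adjusted p = 5.64e-07), while NXF2B went from 0 to 0.762 TPM. NXF2 was also called lower in OVCAR3 ResA (-1.17 ± 0.50, adjusted p = 0.0457). Rows of this list were not summed over copies. A shift of counts between NXF2 and NXF2B was not tested, so the 20% may include such a shift. In PEA2 6 of 17 rose and 3 fell (52.9%, background 44.5%). LIN28B was among those that rose there, from 0 in PEA1 to 1.21 TPM (DESeq2 adjusted p = 3.25e-12). It also rose in OVCAR3 ResA (0.59 ± 0.19, adjusted p = 0.00597). In PEO4 0 of 10 rose and 1 fell (background 33.3%), and in PEO6 3 of 13 rose and 2 fell (38.5%, background 39.2%), with the meiotic gene TEX15 lower in both (-1.45 ± 0.30 and -1.92 ± 0.34). In OVCAR4 ResA 1 of 11 rose and 1 fell (18.2%, background 11.1%), and in OVCAR4 ResB 0 of 11 rose and 1 fell (9.09%, background 17.3%).

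Among 10 MAGE genes that are expressed widely, OVCAR4 ResA had 3 higher and 0 lower of 7 tested (background 11.1%), none of them called by edgeR. OVCAR4 ResB had 4 higher and 1 lower of 7 (background 17.3%), with TRO up by 6.07 ± 1.01 in OVCAR4 ResB (adjusted p = 9.70e-08). MAGEE1, MAGEH1 and MAGED2 were called higher in both OVCAR4 derivatives. TRO lies on the X chromosome, whose tested genes were more often higher than lower in both of these lines, as given above. The part of that shift in the calls of this list was not tested. TRO was lower in PEA2 (-4.25 ± 0.34, adjusted p = 6.02e-35). It was higher in PEO6 (2.66 ± 0.49, adjusted p = 6.17e-07) and in OVCAR3 ResA (0.64 ± 0.16, adjusted p = 0.000176). In PEA2 1 was higher and 5 lower of 9 (background 44.5%), in PEO6 3 higher and 2 lower of 9 (39.2%), in PEO4 0 higher and 2 lower of 9 (33.3%), in OVCAR3 ResA 2 higher and 2 lower of 7 (43.7%) and in OVCAR3 ResB 1 higher and 1 lower of 7 (7.14%). NDN, a growth suppressor of the same fold, fell in PEA2 (-5.50 ± 0.33, adjusted p = 6.23e-60), PEO4 (-3.37 ± 0.23) and PEO6 (-2.15 ± 0.24). Of 10 known partners of MAGE proteins and PRAME, at most 4 were called in a resistant-sensitive pair, 2 higher and 2 lower of 10 in PEA2 (background 44.5%). Between resistant lines, 3 were higher and 3 lower of 9 in OVCAR4 ResB against ResA (background 31.9%). TRIM31, a ubiquitin ligase, was higher in OVCAR3 ResA than in OVCAR3 (3.10 ± 0.49, adjusted p = 2.00e-09) and 4.19 ± 0.77 lower in ResB than in ResA.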

How the data were processed

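The deposited files are gene tables of estimated counts and of TPM, which the authors made with salmon in the nf-core/rnaseq pipeline on GRCh38. Base calls had been converted with DRAGEN. Whether counting used strand is not given in the sources used here. TPM values deposited by the authors were summed over copies and used for levels. The authors' estimated counts as deposited, not normalized, were summed over the copies of a group and rounded. DESeq2 1.42.0 (R 4.3.3) was then fitted to all genes for each comparison, as in the study, with replicate number and line (6 libraries, no filter before the fit, Benjamini-Hochberg adjusted p below 0.05). Alternatives were edgeR 4.0.16, limma 3.58.1 on log2(TPM + 1) or log2(TPM + 0.1), other factors and filters, all 33 libraries in 1 fit, no replicate block, copies not summed, and each replicate left out. Scripts were tested on simulated data. The members, gene lists and comparisons were chosen with earlier results of these data known. Named members were called and had a mean of at least 1 TPM in 1 of the lines compared. Others named were chosen after their values were seen. The calls of the silencing list in the OVCAR4 pairs are not reported here. Floors are 3 counts over a line's libraries, 0.0269 to 0.0409 CPM, and count ratios carry exact 95% intervals. Both cover counting error only. Promoters are from RefSeq (GRCh38.p14), and 83 of 86 rows were matched to a position, 6 of them by synonym. Same-numbered libraries deviated together (correlations above 0.1 for all 3 numbers) in 2 of 10 comparisons, OVCAR3 ResA against OVCAR3 (0.816, 0.347 and 0.680) and OVCAR4 ResB against ResA (0.837, 0.744 and 0.712).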

Additional observations from a re-analysis of the deposited data

Results flagged for a closer look

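6 features were called in opposite directions in 2 families of lines, and the difference between the changes was then tested in a fit of all 33 libraries (DESeq2, adjusted over all features, log2 scale). Of the possible pairs of resistant lines, the largest difference is given. Since the features were taken for their opposite calls, the test of the difference is not independent of that choice.

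For SSX1, the change in OVCAR3 ResA minus the change in PEO6, each against its sensitive line, was -13.23 ± 1.06 (adjusted p = 7.51e-34). For SSX2/2B the same difference was -13.38 ± 1.03 (adjusted p = 2.19e-36), and for SSX5 it was -11.01 ± 2.40 (adjusted p = 3.49e-05). SSX5 had 0 counts in all 3 OVCAR3 ResA libraries, so its fitted value depends on the fit and is not a measured size. MAGED4/4B differed by 10.35 ± 0.94 between OVCAR4 ResB and PEO6 (adjusted p = 3.49e-26). XAGE2/2B differed by 2.38 ± 0.61 between OVCAR3 ResA and PEO4 (adjusted p = 0.000703), although both of the calls behind it were lost when single replicates were left out. CTAGE5 differed by 2.64 ± 0.37 between PEA2 and PEO4 (adjusted p = 1.37e-11).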

How the results depend on the processing

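Of 508 alternative values for the 44 called results of named members, 420 kept direction and call, 83 kept direction and lost the call, 5 had no adjusted p and 0 turned direction. Those 5 were all for XAGE2/2B with copies not summed, where its row is named XAGE2. Of the 44, 15 were called under every alternative run. Numbers of members called moved as follows, and the cause was not tested unless stated. Leaving out each replicate, which leaves fewer samples, gave 6 to 7 calls in OVCAR3 ResA (11 with all), 4 to 5 in OVCAR3 ResB (7), 0 to 1 in OVCAR4 ResA (0), 1 to 2 in OVCAR4 ResB (1), 1 to 2 in PEA2 (3) and 5 to 7 in OVCAR3 ResB against ResA (9). In OVCAR3 ResB, edgeR gave 4, the fit of all 33 libraries 4, and limma on log2(TPM + 1) and on log2(TPM + 0.1) 0 each, with 14 and 13 at an unadjusted p under 0.05. In OVCAR3 ResB against ResA limma on log2(TPM + 1) gave 0, with 14 unadjusted. In OVCAR4 ResA the fit of all libraries gave 1, MAGED4/4B. In OVCAR4 ResB limma on log2(TPM + 1) gave 0 (4 unadjusted) and copies not summed 3. In OVCAR4 ResB against ResA the fit of all libraries gave 1 and copies not summed 6. Between resistant and sensitive lines, copies not summed gave 1 and leaving out the OVCAR4 family 1. No count of the PEO comparisons moved that far.

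Without the replicate block, OVCAR4 ResB against OVCAR4 had 2 calls in place of 1 and OVCAR4 ResB against ResA 1 in place of 3. Of the 44 called results, 40 kept their call without the block and 4 lost it, namely CTAGE5 and MAGED4/4B in OVCAR3 ResA and both CTAGE features in OVCAR4 ResB against ResA. In the 8 comparisons where the correlations of same-numbered libraries were not all above 0.1, no named call was lost without the block. The differences between families without the block were -13.15 for SSX1, -13.37 for SSX2/2B, -10.95 for SSX5, 10.33 for MAGED4/4B, 2.42 for XAGE2/2B and 2.65 for CTAGE5, all still called. The number of libraries and the low counts of most members limit what could be tested: 42 of 55 features stayed below 1 TPM.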
